A study of Mus musculus with 20 samples.

Results

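The genes described here are Irg1 and 5 genes of arginine handling in activated myeloid cells, Nos2, Arg1, Arg2, Ass1 and Slc7a2. They are 6 of the 24421 genes of the count table, and all 6 were among the 12465 genes with enough counts to be fitted. They were chosen by name with earlier results of these same 20 libraries in view. Their differences between groups are therefore given as a description, with no test. Fold changes, standard errors and counts past the threshold of an edgeR adjusted p of 0.05 stand beside the share of all genes past it, and nothing is read from them.

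Bone marrow of wild-type C57BL/6 mice was grown for 8 days with GM-CSF at 40 ng/mL to give bone marrow-derived dendritic cells (BMDCs), and the RNA of cells of 5 mice (A to E) was sequenced in each of 4 conditions. In the DMSO Ova group the cells received ovalbumin alone with 5% DMSO as the labels give it, and in the DMSO IC group ovalbumin coated with rabbit anti-ovalbumin antibody (immune complexes, IC, which cross-link Fcγ receptors) with the same DMSO. The IBET Ova and IBET IC groups received I-BET151 (iBET), an inhibitor of the BET bromodomain proteins that read acetylated histones, at 3.3 μM with ovalbumin or with IC. Stimulation lasted 4 hours in all groups. The labels give no DMSO content for the iBET groups, and the labels and the methods differ on whether iBET was added with the stimulus or ahead of it and on whether cells were sorted or lysed in culture. A library is a bulk culture of 1 mouse, so fewer cells that express a gene and less RNA of it per cell cannot be told apart. Total counts ranged from 16447491 to 29245150 per library, and the ribosomal RNA gene Rn45s took 2.69% to 8.61% of them. Libraries of mice A and B stood apart from those of mice C, D and E on the second principal component, which held 14.9% of the variance, and every group holds all 5 mice.

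Irg1, named Acod1 in current annotation, encodes the mitochondrial enzyme that turns cis-aconitate, an intermediate of the tricarboxylic acid (TCA) cycle, into itaconate. Itaconate inhibits succinate dehydrogenase and modifies proteins such as Keap1, and Irg1 is among the genes that toll-like receptor ligands and interferons induce in macrophages and dendritic cells. Arginine enters myeloid cells through cationic amino acid transporters, one of which Slc7a2 encodes. Nos2, the inducible nitric oxide synthase, turns it into nitric oxide and citrulline, and Ass1, argininosuccinate synthase, takes the first step that turns citrulline back into arginine. Arg1 in the cytosol and Arg2 in mitochondria split arginine into urea and ornithine, the precursor of polyamines and proline. Nos2 and Arg1 are widely used as markers of opposite activation states of macrophages.

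In the GRCm38 build with the GENCODE M21 annotation, the 6 protein-coding genes lie on 6 chromosomes. Irg1 (ENSMUSG00000022126.6) spans chr14:103046977-103056573, Nos2 (ENSMUSG00000020826.8) spans chr11:78920787-78960254 and Arg2 (ENSMUSG00000021125.6) spans chr12:79130777-79156301, all on the plus strand. Ass1 (ENSMUSG00000076441.9) spans chr2:31470207-31520672 and Slc7a2 (ENSMUSG00000031596.15) spans chr8:40862396-40922308, both on the plus strand, and Arg1 (ENSMUSG00000019987.9) spans chr10:24915221-24927484 on the minus strand.

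RefSeq promoter sequence was at hand for 2 of the 6 genes, Irg1 and Ass1, and both are shown, as Irg1 had the largest response to IC and Ass1 the smallest difference with iBET. Each is the plus strand of GRCm38.p6, 5′ to 3′, from 250 bases ahead of the RefSeq start site up to the base before the GENCODE gene start, chr14:103046762-103046976 for Irg1 and chr2:31470020-31470206 for Ass1, with matches to the motifs searched in capitals.
Irg1: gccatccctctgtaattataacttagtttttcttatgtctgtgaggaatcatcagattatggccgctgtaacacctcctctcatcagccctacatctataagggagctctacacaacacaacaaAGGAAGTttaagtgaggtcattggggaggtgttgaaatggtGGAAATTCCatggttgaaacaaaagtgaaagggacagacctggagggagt
Ass1: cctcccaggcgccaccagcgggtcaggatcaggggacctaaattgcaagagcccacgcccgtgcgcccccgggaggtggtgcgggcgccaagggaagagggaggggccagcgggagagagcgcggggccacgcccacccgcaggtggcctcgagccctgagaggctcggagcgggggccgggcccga
The motifs were chosen with these sequences in view and searched on both strands of the whole 250 bases. They were AP-1 (TGANTCA), GAS (TTCNNNGAA), C/EBP (TTGCNNAA), the E-box (CACGTG), PU.1 (AGGAAGT), the TATA box (TATAAA), the NF-kB consensus and the palindrome GGAANTTCC. The Irg1 window held AGGAAGT starting at -126 from the RefSeq start site, a string that 7.69% of 32851 promoters hold. It held GGAANTTCC at -85, a string that 0.813% of promoters hold, and TATAAA at -28, past the printed stretch, which 12.4% hold. The Ass1 window held the E-box alone, at -36 and also past the printed stretch, which 6.02% hold. GC content of the 250 bases was 44.4% for Irg1 and 75.6% for Ass1, beside a median of 52.4% over all promoters. A match is a description of the sequence and was not tested as a binding site.

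All 6 genes had higher mean levels with IC than with Ova, under DMSO and under iBET, and iBET divided them. Irg1, Nos2, Arg1 and Slc7a2 were lower with iBET in every mouse and with both stimuli, Arg2 was slightly higher in every mouse, and Ass1 differed little. Irg1 had the largest response to IC, 11.6-fold under DMSO and 11.9-fold under iBET, and iBET left its level at 0.215 of the DMSO level with Ova and 0.222 with IC. The 4 comparisons share groups pairwise, so their values are given side by side and not as independent of each other.

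**Figure D1:**
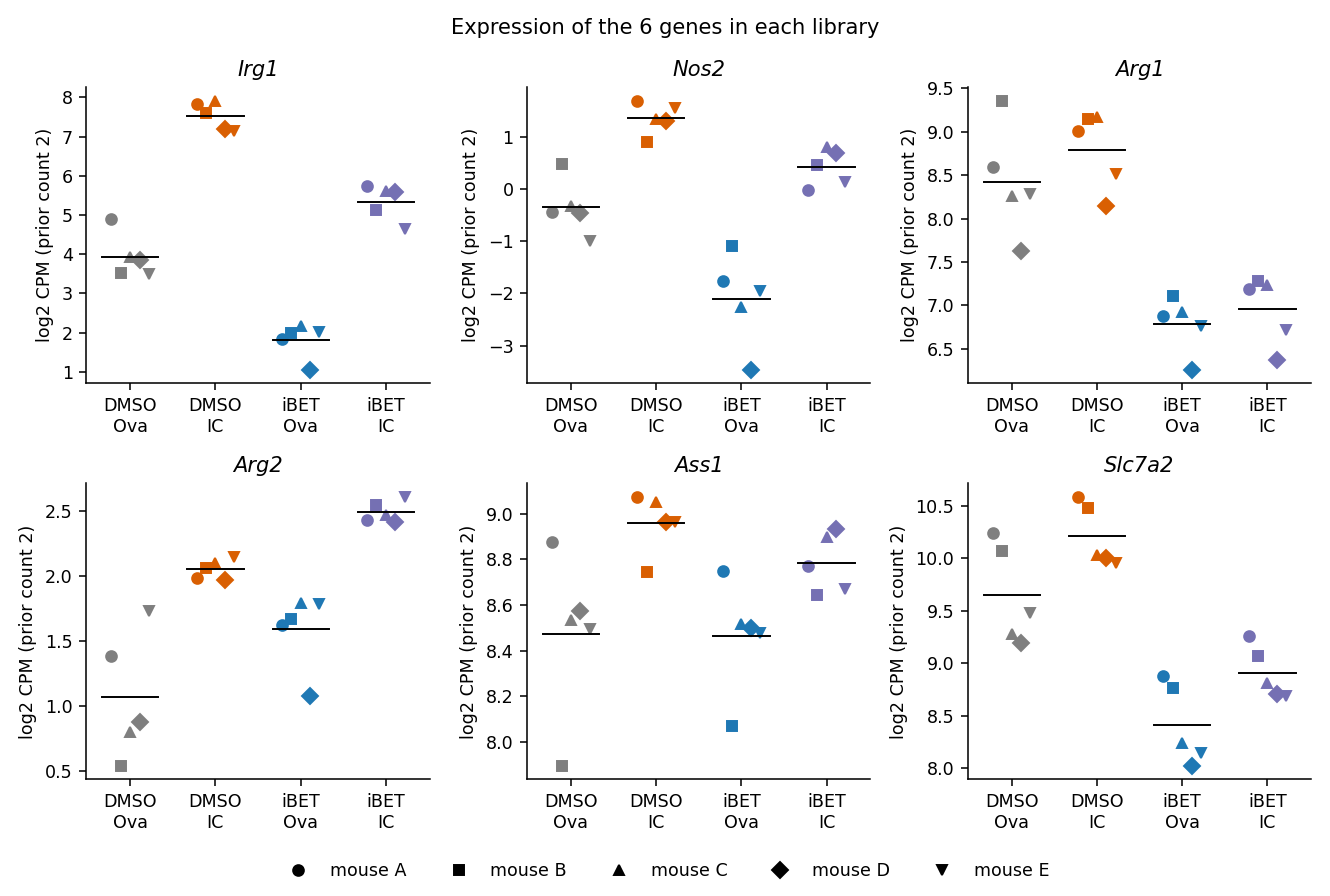
Log2 CPM of each gene (prior count 2) in the 20 libraries, by group on the x axis, with a marker shape for each of the 5 mice and a black line at the group mean. The y axes differ between genes and do not start at 0. Irg1 and Nos2 stand higher in both IC groups than in the matching Ova groups. Irg1, Nos2, Arg1 and Slc7a2 stand lower in the iBET groups than in the matching DMSO groups.

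Irg1, the itaconate synthase, was at 29.6, 11.3, 15.0, 14.4 and 11.2 CPM (counts scaled to the TMM-normalized library size) in mice A to E in the DMSO Ova group, a mean of 16.3 ± 7.63 (SD, n = 5). With IC under DMSO it was at 226, 193, 241, 146 and 141 CPM, a mean of 189.8 ± 45.4. With iBET the level was 3.47, 3.90, 4.43, 1.98 and 3.98 CPM with Ova, a mean of 3.55 ± 0.942, and 53.4, 34.6, 49.2, 47.9 and 25.0 CPM with IC, a mean of 42.0 ± 11.8. The 4 groups did not overlap in any of the 4 comparisons, and mouse A of the DMSO Ova group stood above the other 4. Against DMSO, iBET gave a log2 fold change of -2.21 ± 0.30 (SE) with Ova and -2.17 ± 0.26 with IC. That of IC against Ova was 3.53 ± 0.28 under DMSO and 3.57 ± 0.30 under iBET. Within single mice the ratio of IC to Ova ran from 7.65 to 17.1 under DMSO and from 6.30 to 24.2 under iBET. With both agents the mean was 42.0 CPM, beside 16.3 CPM in cells with neither, and the ranges of these groups overlapped, with the highest DMSO Ova library at 29.6 and the lowest IBET IC library at 25.0 CPM. Without mouse A, the log2 fold change of iBET with Ova was -1.88.

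Nos2, the inducible nitric oxide synthase, had between 0 and 70 counts in a library, so its values carry a large counting error. It was at 0.642, 1.30, 0.706, 0.630 and 0.410 CPM in mice A to E with DMSO and Ova, and at 3.13, 1.77, 2.43, 2.37 and 2.84 CPM with DMSO and IC. With iBET it was at 0.202, 0.380, 0.117, 0 and 0.167 CPM with Ova, where the 0 counts of mouse D allow up to 0.135 CPM (3 counts, counting error only), and at 0.888, 1.29, 1.66, 1.53 and 1.00 CPM with IC. No groups overlapped in the 4 comparisons. The group means were 0.739 ± 0.335, 2.51 ± 0.516, 0.173 ± 0.138 and 1.27 ± 0.329 CPM in the order given. For iBET the log2 fold change was -2.06 ± 0.44 with Ova and -0.98 ± 0.31 in IC-stimulated cells, and for IC it was 1.78 ± 0.33 under DMSO and 2.86 ± 0.42 under iBET. The IBET Ova group had at most 7 counts in a library, so the gene passed the filter on low counts through groups in which it is higher. Nos2 was the gene of the 6 for which the log2 fold changes with the 2 stimuli were furthest apart, with a difference of 1.08 ± 0.54 between the iBET effect with IC and with Ova, positive in 3 mice and negative in 2.

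Arg1, the cytosolic arginase, was at 385, 655, 305, 197 and 312 CPM in mice A to E with DMSO and Ova and at 514, 564, 577, 282 and 364 CPM with DMSO and IC. With iBET it was at 118, 138, 122, 76.5 and 108 CPM with Ova and at 146, 156, 150.0, 82.7 and 105 CPM with IC. Mouse D was lowest in each of the 4 groups, and the iBET groups lay below the DMSO groups with no overlap. Log2 fold changes of iBET were -1.72 ± 0.27 with Ova and -1.85 ± 0.28 with IC, and in single mice with IC it lay between -1.94 and -1.77. The Ova and IC groups overlapped. IC gave a log2 fold change of 0.31 ± 0.27 under DMSO and 0.19 ± 0.27 under iBET, higher in 4 of 5 mice in both, with mouse B lower under DMSO and mouse E under iBET. Fitted with the mouse as a replicate block, which pairs the libraries of a mouse, these values were 0.35 ± 0.12 and 0.17 ± 0.12.

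Arg2, the mitochondrial arginase, ran the other way under iBET. Its level was 2.53, 1.36, 1.65, 1.75 and 3.23 CPM in mice A to E with DMSO and Ova and at 3.87, 4.08, 4.20, 3.83 and 4.34 CPM with DMSO and IC, from 23 to 107 counts per library. With iBET it was at 2.99, 3.09, 3.38, 2.03 and 3.35 CPM with Ova and at 5.29, 5.76, 5.43, 5.25 and 6.01 CPM with IC. iBET gave a log2 fold change of 0.49 ± 0.18 with Ova, where the groups overlapped, and 0.45 ± 0.17 with IC, where they did not. In single mice it lay between 0.050 and 1.13 for Ova and between 0.36 and 0.49 for IC, positive in 5 of 5 mice in both. For IC the log2 fold change was 0.95 ± 0.18 under DMSO and 0.90 ± 0.18 under iBET, with no overlap. Scaling by library size alone gave 0.43 with Ova and 0.40 with IC for iBET, and with it neither value was past the threshold.

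**Figure D2:**
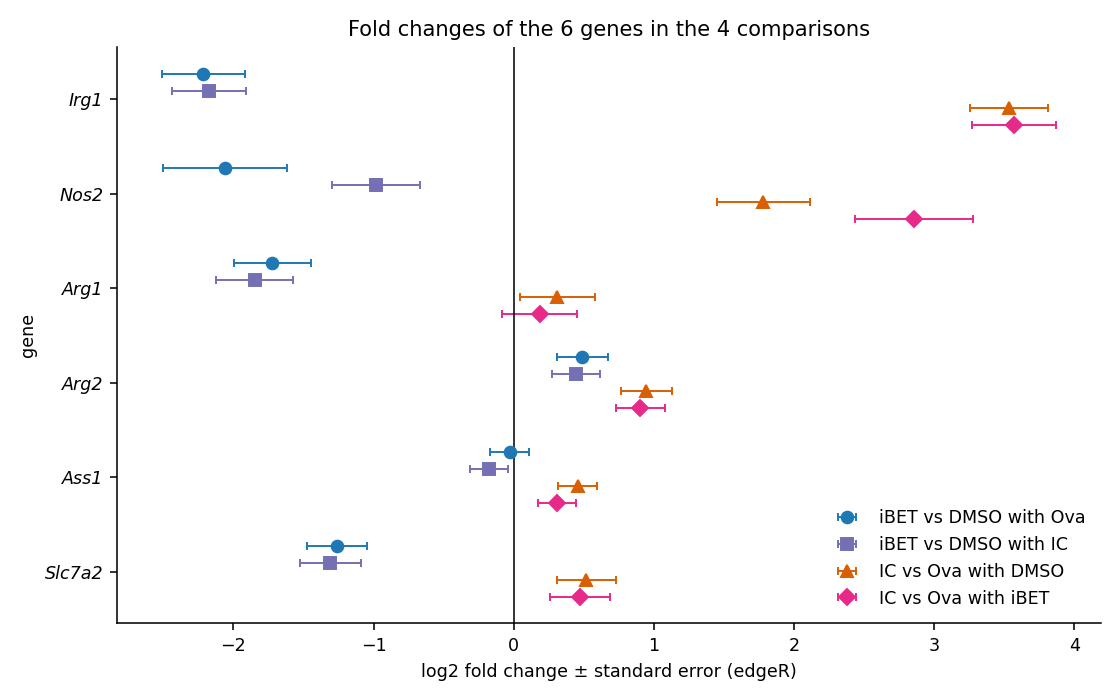
Log2 fold change (x axis) with its standard error from edgeR for each of the 6 genes (y axis), in the 4 comparisons, each with 5 mice a group. Irg1, Nos2, Arg1 and Slc7a2 lie left of 0 for iBET with both stimuli, Arg2 lies right of 0, and Ass1 is within 0.18 of 0 for iBET.

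The balance between both arginases differed with iBET. Per kilobase of exon, the ratio of Arg1 to Arg2 ran from 61.9 to 308 in the DMSO Ova libraries and from 47.2 to 88.5 in the DMSO IC libraries. It ran from 20.7 to 28.6 in the IBET Ova libraries and from 10.1 to 17.7 in the IBET IC libraries, so that the iBET libraries lay below the DMSO libraries with either stimulus. The ratio of Arg1 to Nos2 per kilobase had a median of 994 in the DMSO Ova group, 325 in the DMSO IC group and 207 in the IBET IC group. In the IBET Ova group it was 1156 (719 to 1280) over the 3 libraries with more than 3 counts of Nos2. The DMSO Ova libraries ran from 618 to 1506. The libraries of mice C and D, with 2 and 0 counts of Nos2, were left out. They had the lowest Nos2 levels of the IBET Ova group, so its ratio may be understated and how it compares with DMSO Ova is not settled. In the IC groups the ratio ran from 235 to 631 under DMSO and from 107 to 326 under iBET, and these ranges overlapped. These ratios follow from the values of the chosen genes and are a description.

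Ass1, the enzyme that recycles citrulline, was at 469, 238, 371, 381 and 360.1 CPM in mice A to E with DMSO and Ova and at 538, 429, 531, 499 and 499 CPM with DMSO and IC. With iBET it was at 429.5, 269, 366, 362 and 356 CPM with Ova and at 436, 399.5, 477, 489 and 407 CPM with IC. Mouse B was lowest in all 4 groups, and the groups overlapped in each comparison. With iBET the log2 fold change was -0.030 ± 0.14 under Ova and -0.18 ± 0.14 under IC. For IC it was 0.46 ± 0.14 under DMSO and 0.31 ± 0.14 with iBET, higher in 5 of 5 mice in both. Fitted with the replicate block, the values for IC were 0.48 ± 0.08 and 0.33 ± 0.08. The values of Ass1 cannot be told apart from those of Gm5424, a processed pseudogene at chr10:62071123-62072362 (GRCm38). The counts of the 2 genes differed by 0 to 5 in each of the 20 libraries, with 184966 counts for Ass1 and 184924 for Gm5424 in all. How the authors counted reads that fit both places is not given in the sources used here.

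Slc7a2, the cationic amino acid transporter, was at 1208, 1074, 620.4, 585 and 712 CPM in mice A to E with DMSO and Ova and at 1533, 1426, 1043, 1024 and 989 CPM with DMSO and IC. With iBET it was at 469.9, 433, 303, 259.9 and 284 CPM with Ova and at 613, 535, 449, 419 and 413 CPM with IC. Mice A and B stood above mice C, D and E in each group, and the iBET groups lay below the DMSO groups with no overlap. Its log2 fold change with iBET was -1.26 ± 0.22 for Ova and -1.31 ± 0.22 for IC, with single mice between -1.36 and -1.03 and between -1.41 and -1.22. The change with IC was 0.52 ± 0.21 under DMSO and 0.47 ± 0.21 under iBET on the log2 scale, higher in 5 of 5 mice in both, although the ranges of the Ova and IC groups overlapped, with mice A and B high with either stimulus. Fitted with the replicate block, the change with IC was 0.55 ± 0.07 under DMSO and 0.50 ± 0.07 under iBET.

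Past the threshold, 4 of the 6 genes were lower with iBET and Ova, where 28.9% of all genes tested were, and 1 was higher, where 27.7% were. With iBET and IC the same 4 were lower (29% of all genes) and Arg2 was higher (27.1%). With IC under DMSO 4 of 6 were higher, Irg1, Nos2, Arg2 and Ass1 (9.59% of all genes), and under iBET 3 of 6, Irg1, Nos2 and Arg2 (5.19%). With the mouse as a replicate block, which pairs the libraries of a mouse, these counts were 6 of 6 (18.3%) and 5 of 6 (14.2%), the exception being Arg1 under iBET. The CPM ranges did not overlap for 4 of 6 genes with iBET and Ova, as for 38% of all genes, and for 5 of 6 with iBET and IC, as for 42.8%. They did not overlap for 3 of 6 in both IC comparisons, Irg1, Nos2 and Arg2, as for 12.4% of all genes under DMSO and 10% under iBET. For the difference of the iBET effect between IC and Ova, 0 of 6 genes passed the threshold in edgeR, where 0.0401% of all genes did, 0 of 6 in DESeq2, and 0 of 6 with the replicate block, where 0.818% did. At an unadjusted p under 0.05 there were 0 of 6 in edgeR, beside 543 of all 12465 genes, and 1 of 6 in DESeq2, beside 531. This difference was 0.041 ± 0.37 for Irg1 on the log2 scale and between -0.15 and -0.043 for Arg1, Arg2, Ass1 and Slc7a2.

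Compared per kilobase of exon, the levels fell into a high and a low set. In the DMSO Ova group Arg1 was at 166 ± 77.4 CPM per kb, Ass1 at 151 ± 34.2 and Slc7a2 at 91.9 ± 31.0, and the ranges of these 3 overlapped. Irg1 followed at 6.22 ± 2.91, Arg2 at 1.47 ± 0.535 and Nos2 at 0.167 ± 0.0760 CPM per kb, with no overlap between neighbours. In the DMSO IC group Irg1 was at 72.4 ± 17.3 CPM per kb, its highest library at 92.0 and the lowest Slc7a2 library at 108, next to Ass1 at 207 ± 17.9, Arg1 at 207 ± 58.8 and Slc7a2 at 132 ± 28.0. There Arg1 overlapped with both Ass1 and Slc7a2, and Arg2 was at 2.85 ± 0.153 and Nos2 at 0.568 ± 0.117 CPM per kb. In the IBET Ova group Ass1, at 148 ± 23.7 CPM per kb, stood above Arg1 at 50.5 ± 10.2 and Slc7a2 at 38.3 ± 10.4, whose ranges overlapped, and Irg1, at 1.35 ± 0.359, overlapped with Arg2 at 2.08 ± 0.387, with Nos2 lowest at 0.0392 ± 0.0314. In the IBET IC group the order was Ass1 at 183 ± 16.7, Arg1 at 57.4 ± 14.5, Slc7a2 at 53.2 ± 9.46, Irg1 at 16.0 ± 4.51, Arg2 at 3.88 ± 0.228 and Nos2 at 0.288 ± 0.0746 CPM per kb, with an overlap between Arg1 and Slc7a2 alone. These lengths are the exons of all annotated transcripts together, 9.13 kb for Slc7a2, so a gene with long untranslated exons that are little used reads low on this scale.

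**Figure D3:**
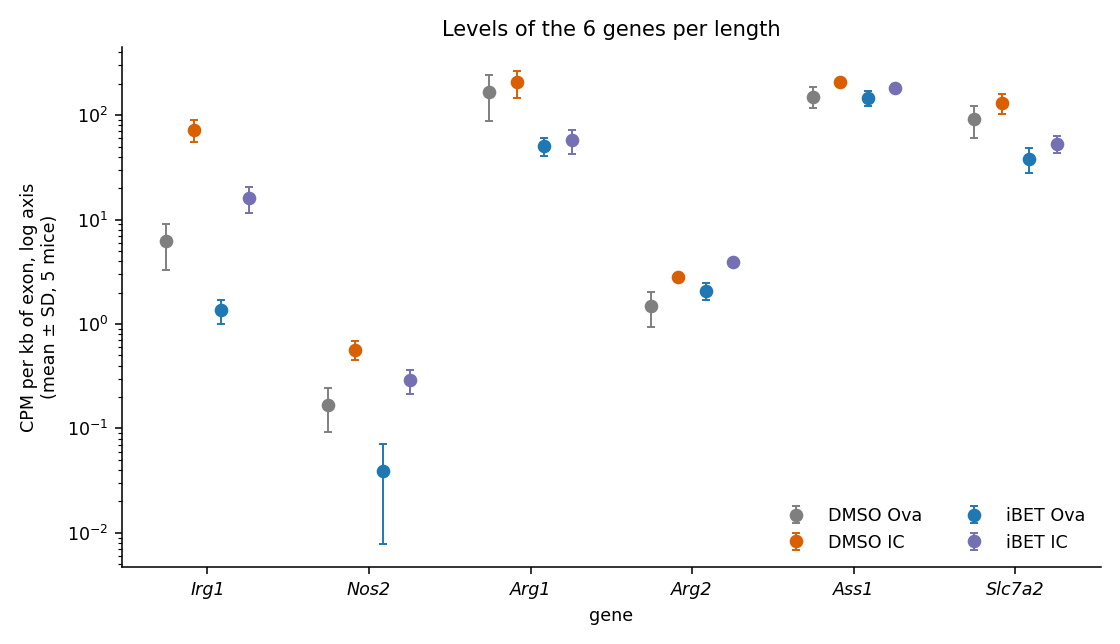
Mean level in CPM per kilobase of exon on a log axis for each gene (x axis), with the SD over 5 mice, in the 4 groups. Arg1, Ass1 and Slc7a2 stand above 30 CPM per kb in every group, Nos2 stays under 1, and Irg1 moves from 1.35 in the IBET Ova group to 72.4 in the DMSO IC group.

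Over the 20 libraries, the levels of the 6 genes on the log2 CPM scale were compared with those of the 9782 genes with a mean of at least 100 counts, as a description. The libraries share mice and conditions, so these correlations carry no test. The genes most like Irg1 were Rragd, which encodes a GTPase of amino acid sensing (Pearson r = 0.96), Il1a, an interleukin-1 ligand (r = 0.96), and Alas1, the first enzyme of haem synthesis (r = 0.96). For Nos2 they were Il1a (r = 0.93), Irak2, a kinase of toll-like receptor signalling (r = 0.93), and Irg1 itself (r = 0.92). Arg1 went with Dach1, Serpinb2 and Cd300ld (r = 0.95 to 0.96), and Slc7a2 with Clmp, Il10rb and Tnfrsf26 (r = 0.98 to 0.99). Arg2 went with Plek, Eef1g and Ppp2ca (r = 0.92 to 0.94). For Ass1 the nearest was its processed copy Gm5424 (r = 1.00), followed by Hp, which encodes haptoglobin (r = 0.88), and Elp5 (r = 0.87). With the group means taken out, r was 0.43, 0.66 and 0.71 in turn for the genes named for Irg1. It was then 0.48, 0.63 and 0.30 for those of Nos2, and 0.77 to 0.83 for those of Arg1. For those of Arg2 it was 0.57 to 0.70, for those of Slc7a2 0.92 to 0.94, and for Hp and Elp5 0.83 and 0.74. Among the 6 genes, Arg1 and Slc7a2 had r = 0.92, and 0.70 once the group means were taken out, whereas Irg1 and Nos2 had r = 0.92 and 0.30. Arg1 and Arg2 had r = -0.25, and 0.014 with the group means taken out.

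The neighbouring enzymes and carriers were taken from 5 lists, of 78 genes in all, which hold none of the 6 genes and were chosen with earlier results of these data known. Of these, 69 were tested. With iBET and Ova 36 were higher and 7 lower (edgeR quasi-likelihood test, Benjamini-Hochberg adjusted p under 0.05), where 27.7% and 28.9% of all genes were, and with iBET and IC 29 were higher and 4 lower (27.1% and 29%). Their median log2 fold change was 0.21 and 0.16, beside -0.0029 and -0.0054 over all genes. With IC under DMSO 12 were higher (9.59% of all genes) and 6 lower (10.7%), and under iBET 4 higher (5.19%) and 2 lower (6.63%), with medians of -0.011 and 0.0083 beside -0.024 and -0.014 over all genes. With the replicate block these became 18 higher and 12 lower, and 16 higher and 6 lower. Scaling by library size alone gave 5 higher and 16 lower, and 1 higher and 8 lower. For the difference of the iBET effect between stimuli 0 of 69 passed in edgeR and in DESeq2, 5 of 69 had an unadjusted p under 0.05 in each, and 1 passed with the replicate block.

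The polyamine genes take up the ornithine that arginases make. Of 13 tested, 9 rose and 0 fell with iBET and Ova (27.7% and 28.9% of all genes), with a median log2 fold change of 0.49. With iBET and IC 7 rose and 0 fell (27.1% and 29%), with a median of 0.49. The others did not pass the threshold, among them Srm, spermidine synthase, at -0.079 with Ova and -0.25 with IC, of which the latter passed with the replicate block (edgeR adjusted p = 0.0337). Odc1, ornithine decarboxylase and the entry enzyme of the pathway, rose with Ova from 75.1 ± 5.86 to 172 ± 5.52 CPM, a log2 fold change of 1.19 ± 0.08 (edgeR adjusted p = 1.96e-10). With IC it rose from 102 ± 10.3 to 231 ± 24.7 CPM, by 1.17 ± 0.08 on the log2 scale (edgeR adjusted p = 2.33e-10), in 5 of 5 mice in both. Sat1, which acetylates polyamines for export and breakdown, rose by 1.90 ± 0.11 with Ova and 2.12 ± 0.11 with IC on the log2 scale (edgeR adjusted p = 3.91e-11 and 8.8e-12). Amd1, which makes the aminopropyl donor, rose by 1.45 ± 0.12 and 1.39 ± 0.12. The antizyme Oaz2, which directs ornithine decarboxylase to degradation, and the antizyme inhibitor Azin1 both rose, Oaz2 by 1.18 and 1.29 and Azin1 by 1.27 and 0.89, each in 5 of 5 mice. In response to IC under DMSO 7 of the 13 rose and 1 fell (9.59% and 10.7% of all genes), with a median of 0.20. With scaling by library size alone 2 rose and 3 fell, beside 582 and 2593 of all 12465 genes. Srm rose by 0.47 ± 0.14 (edgeR adjusted p = 0.0226), Odc1 by 0.44 ± 0.08 (adjusted p = 0.00056) and Eif5a, the protein that spermidine modifies, by 0.34 ± 0.06, and the oxidase Paox fell by 0.51 ± 0.14 on that scale.

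Of the other 13 tested enzymes of arginine, ornithine and proline metabolism, 8 rose and 2 fell with iBET and Ova (27.7% and 28.9% of all genes). With iBET and IC 6 rose and 1 fell (27.1% and 29%), and the medians were 0.44 and 0.29. Prodh, proline dehydrogenase, rose from 4.13 ± 0.557 to 12.8 ± 1.15 CPM with Ova (1.64 ± 0.14, edgeR adjusted p = 4.82e-09) and by 2.09 ± 0.14 with IC. Aldh4a1, the next enzyme of proline breakdown, rose by 1.20 ± 0.09 and 1.47 ± 0.09, and Oat, which turns ornithine towards proline and glutamate, by 0.56 ± 0.07 in both. Nags, which makes the activator of the urea cycle, fell with both (-1.61 ± 0.28 with Ova and -1.55 ± 0.27 with IC), at 11 to 108 counts per library. Azin2, an antizyme inhibitor, rose by 1.02 ± 0.23 and 1.00 ± 0.23. Asl, which completes the citrulline cycle after Ass1, was at 46.4 ± 6.42 CPM with DMSO and Ova and 48.5 ± 3.82 with iBET and Ova, and did not pass the threshold in any of the 4 comparisons, though with the replicate block it was higher with iBET and IC (edgeR adjusted p = 0.0148) and with IC under iBET (adjusted p = 0.0397). Otc and Cps1, the urea cycle enzymes of liver, had 0 counts in every library. Prodh (-0.62 ± 0.15) and Aldh18a1, which makes proline precursor from glutamate (-0.57 ± 0.16), fell with IC under DMSO, whereas Oat rose by 0.21 ± 0.07.

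Of 10 tested carriers of cationic amino acids other than Slc7a2, 3 rose and 2 fell with iBET and Ova (27.7% and 28.9% of all genes). With iBET and IC 3 rose and 3 fell (27.1% and 29%), so these counts lie near the shares of all genes. Slc7a7, a light chain of the exporter of arginine, fell from 31.7 ± 8.48 to 9.80 ± 3.23 CPM with Ova (-1.69 ± 0.29, edgeR adjusted p = 4.92e-05), and fell by 1.56 ± 0.29 with IC. Slc7a3, a transporter related to Slc7a2, rose from 0.406 ± 0.150 to 2.28 ± 1.12 CPM with Ova at 3 to 77 counts per library (2.52 ± 0.44, edgeR adjusted p = 6.73e-05) and by 1.34 ± 0.47 with IC, and was lower with IC than with Ova under iBET (-1.34 ± 0.40). Slc7a1, the widely expressed member of the same family, was at 128 ± 26.0 and 152 ± 16.7 CPM with Ova under DMSO and iBET and did not pass the threshold for iBET, except with the replicate block and Ova, where it was higher (edgeR adjusted p = 0.0427). It fell with IC under iBET (-0.61 ± 0.15). Pqlc2, a lysosomal carrier of cationic amino acids, rose by 0.73 and 0.80 with iBET, and Slc25a29, a mitochondrial one, fell with both stimuli (-1.42 ± 0.54 and -1.31 ± 0.54). Slc3a2, the heavy chain that pairs with several light chains, rose with IC under DMSO from 290 ± 43.1 to 433 ± 31.8 CPM (0.58 ± 0.09, edgeR adjusted p = 0.000208). It fell with iBET and IC (-0.56 ± 0.09) and was the gene of the 69 whose iBET effect differed between stimuli with the replicate block (edgeR adjusted p = 0.0451 with the block).

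Tetrahydrobiopterin is a cofactor that nitric oxide synthases need. Of 6 tested genes of its synthesis and recycling, 4 rose and 0 fell with iBET and Ova (27.7% and 28.9% of all genes). With iBET and IC 3 rose and 0 fell (27.1% and 29%), whereas Nos2 was lower with iBET under both stimuli. Gch1, the first enzyme, rose from 23.1 ± 4.27 to 35.3 ± 5.65 CPM with Ova (0.61 ± 0.12, edgeR adjusted p = 0.000287) and by 0.46 ± 0.12 with IC, and it rose with IC under DMSO by 0.45 ± 0.12. Qdpr, which recycles the cofactor, rose by 0.37 and 0.43 with iBET, and Pcbd2 by 0.31 with Ova.

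Around Irg1, 27 genes of the TCA cycle, of its carriers and of itaconate breakdown were tested. With iBET and Ova 12 rose and 3 fell (27.7% and 28.9% of all genes), with a median of 0.11. With iBET and IC 10 rose and 0 fell (27.1% and 29%), with a median of 0.16. For iBET with IC, 9 rose and 4 fell with scaling by library size alone, where 2982 and 4024 of all 12465 genes did. In the same comparison 13 rose and 3 fell with the replicate block, where 8473 of all genes passed in either direction. Aco1, the cytosolic aconitase, rose by 0.35 and 0.39 with iBET, Acly, which splits citrate in the cytosol, by 0.58 and 0.76, Mdh2 by 0.54 and 0.50 and Ogdh by 0.50 and 0.33. For IC under DMSO, Ogdh rose by 0.35 ± 0.06, whereas Acly (-0.24 ± 0.08) and Fh1, fumarase (-0.19 ± 0.06), fell. Clybl, an enzyme of itaconate breakdown, rose by 0.37 ± 0.12 with Ova and 0.38 ± 0.12 with IC. None of these changes reached the size of those of Irg1, whose log2 fold change was -2.21 for iBET with Ova and 3.53 for IC under DMSO.

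**Figure D4:**
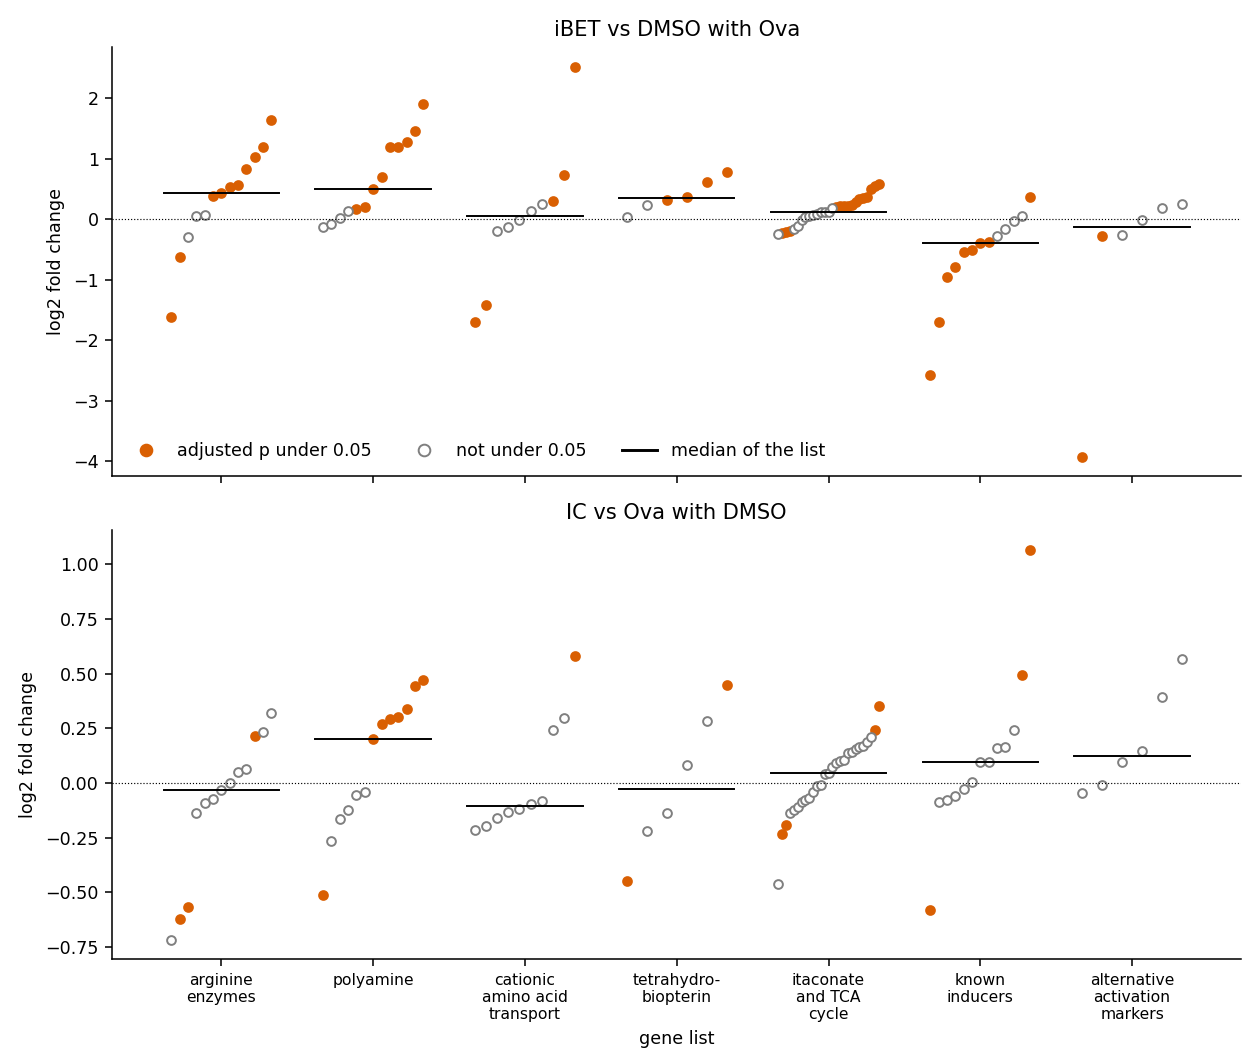
Log2 fold change (y axis) of each tested gene in the 5 pathway lists, the list of known inducers and the list of alternative activation markers (x axis), for iBET against DMSO with Ova above and IC against Ova with DMSO below. Filled points have an edgeR adjusted p under 0.05 and bars are list medians, of which the polyamine list has the highest at 0.49 for iBET and 0.20 for IC, and the 6 genes themselves are not plotted.

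Of 13 transcription factors known to act on some of the 6 genes in macrophages, 8 fell and 1 rose with iBET and Ova (28.9% and 27.7% of all genes). With iBET and IC 9 fell and 0 rose (29% and 27.1%), and the medians were -0.39 and -0.45. Spi1, the myeloid factor PU.1, fell from 193 ± 11.1 to 32.3 ± 4.10 CPM with Ova (-2.57 ± 0.09, edgeR adjusted p = 2.66e-14), and fell by 2.77 ± 0.09 with IC. With Ova and with IC in turn, Pparg fell (-1.70 ± 0.11 and -1.56 ± 0.11), as did Stat6, the factor of interleukin-4 signalling to Arg1 (-0.96 ± 0.06 and -1.02 ± 0.06), and Klf4 (-0.80 ± 0.13 and -0.65 ± 0.13). In the IC comparison under DMSO 2 rose and 1 fell (9.59% and 10.7% of all genes), and 5 and 1 with the replicate block (18.3% of all genes higher). Cebpb rose from 213 ± 40.4 to 447 ± 49.5 CPM (1.07 ± 0.15, edgeR adjusted p = 6.29e-05) and, under iBET, by 0.74 ± 0.15, and Hif1a rose by 0.49 ± 0.09 under DMSO, whereas Klf4 fell with IC in both (-0.58 ± 0.13 and -0.43 ± 0.13). Cebpb fell with iBET in turn, -0.39 ± 0.15 with Ova and -0.72 ± 0.15 with IC. Whether these factors have a part in the levels of the 6 genes was not tested.

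Among 8 other markers of alternative activation, the state that Arg1 is used to mark, 6 were tested and 2 fell with iBET and Ova (28.9% of all genes). Pdcd1lg2, which encodes the ligand PD-L2, fell from 93.8 ± 31.5 to 6.16 ± 1.90 CPM (-3.93 ± 0.28, edgeR adjusted p = 4.79e-10), and fell by 3.85 ± 0.27 with IC. Mgl2, a lectin, fell with iBET and Ova (-0.27 ± 0.09) and rose with IC under iBET (0.35 ± 0.09). Chil3, at 13838 CPM with DMSO and Ova and 16474 with iBET and Ova, Retnla, Mrc1 and Ccl24 did not pass the threshold in any of the 4 comparisons. With the replicate block Chil3 was higher with iBET under both stimuli, Mrc1 lower with iBET and Ova, Retnla higher with IC in both and Ccl24 higher with IC under iBET.

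Of the 88 calls on named genes of these lists, 62 were past the threshold whichever mouse was left out. With iBET, the calls lost without some 1 mouse were Cebpb, Eif5a, Mgl2, Pcbd2 and Slc25a29 with Ova and Hif1a, Slc25a29 and Slc7a3 with IC. For IC under DMSO they were 10 of 18, among them Acly, Aldh18a1, Azin1, Fh1, Gch1, Oat, Paox and Srm, and under iBET 8 of 10, all but Odc1 and Cebpb. With scaling by library size alone, the median of all genes moved by -0.11 in both IC comparisons, the medians of the TCA cycle list and of the list of inducers with IC under DMSO turned from 0.047 and 0.094 to -0.059 and -0.016, and no called gene of these lists changed sign.

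The cultures were checked against markers of their label and of other cells. The 8 dendritic cell markers, with Itgax, Cd74 and H2-Ab1 among them, summed to 4733 to 10171 CPM per library and 1 of 8 passed the threshold with iBET, Flt3, which fell. With the replicate block 5 of 8 were lower with iBET under both stimuli, Flt3, Ccr7, Ccl22, Cd83 and Zbtb46, while 1 was higher with Ova (Cd74) and 2 with IC (Cd74 and Itgax), and 6 of 8 were higher with IC under DMSO and under iBET. In that fit 8560 of all 12465 genes passed with iBET and Ova and 8473 with iBET and IC, in either direction. For IC, 18.3% of all genes were higher under DMSO and 14.2% under iBET. The 9 macrophage markers summed to 1339 to 2048 CPM in the DMSO Ova group and 911 to 1299.7 in the IBET Ova group. Of these 9, 6 fell and 1 rose with iBET and Ova (28.9% and 27.7% of all genes). With iBET and IC 4 fell and 1 rose (29% and 27.1%). Csf1r (-0.83 and -0.68) and Fcgr1 (-2.09 and -1.85) fell with both stimuli. With IC 1 of 9 fell under DMSO (10.7% of all genes) and 0 of 9 passed under iBET. With the replicate block 2 rose and 2 fell under DMSO and 6 rose and 1 fell under iBET. Eosinophil markers (4 of 4 tested) summed to 40.2 to 144 CPM, with 1 of 4, Siglecf, lower with iBET (2 of 4 with the replicate block), and neutrophil markers (5 of 8 listed tested) to 12.1 to 51.4 CPM, with 1 of 5, Mpo, higher with iBET at no more than 22 counts and 1 other lower with the replicate block. Markers of mast cells or basophils stayed at or under 2.80 CPM in sum, erythroid markers at or under 6.51, T, B or NK cell markers at or under 0.75 and stromal markers at or under 0.53 with Col3a1 at 0. The part of macrophage-like cells in the lower levels of Irg1, Nos2, Arg1 and Slc7a2 under iBET was not tested.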

How the data were processed

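RNA-seq of 20 BMDC libraries was used, 5 mice in each of 4 groups. As the methods state, the authors trimmed reads with Trim Galore and used HISAT2 for alignment to mm10. The submitters' processing notes name featureCounts, and the authors deposited its raw counts per gene and library. Versions, the annotation, the strand setting and the handling of multi-mapped reads are not given in the sources used here. A second deposited table, the same counts divided by 1 number per library, was not used.

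After filterByExpr and TMM scaling, 1 model with a mean for each of the 4 groups was fitted in edgeR 4.0.16 (R 4.3.3), contrasts were tested by quasi-likelihood, and the Benjamini-Hochberg adjustment ran over 12465 genes. CPM values use TMM-scaled library sizes, and log2 CPM has a prior count of 2. Errors are the SD over mice or the SE of the fit, which does not pair libraries by mouse unless the replicate block is named. The edgeR fit without the block was tried on simulated counts of independent libraries, for iBET against DMSO with Ova alone. The pairing by mouse, the other comparisons and the other methods were not simulated. The 6 genes, the lists, the motifs and the tests were chosen with earlier results of these data known. From each list, up to 4 genes with the largest change among those past the threshold in the iBET comparisons and up to 4 in the IC comparisons are named, and for each of the 6 genes the 3 most like it. Other genes are named where a count of 5 or fewer or a role called for it, after their values were seen. Some genes that meet this rule are counted but not reported here by name. Exon lengths and positions came from GENCODE M21, in which Irg1 is Acod1, and promoters from RefSeq.

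Libraries of the same mouse are paired by the mouse letter in the labels. After group means were removed, the mean correlation of 30 such pairs of libraries across genes was 0.52 (lowest 0.31), against -0.16 for libraries of different mice. The alternatives were the mouse as a replicate block, DESeq2 1.42.0, DESeq2's size factors or library size alone, no filter on low counts, 3 surrogate variables from sva 3.50.0, each mouse left out, and, added after the values were seen, mice A and B only and mice C, D and E only.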

Additional observations from a re-analysis of the deposited data

Results flagged for a closer look

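Of the 24 combinations of 6 genes and 4 groups, 1 held a library far from the others of its group. Irg1 in the DMSO Ova library of mouse A stood at 29.6 CPM, against 11.2 to 15.0 CPM in the other 4 mice. Chance alone marks about 1 in 20 such groups. Without mouse A the log2 fold change of iBET with Ova was -1.88 in place of -2.21, and that of IC under DMSO was 3.79 in place of 3.53.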

How the results depend on the processing

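Under the alternatives run, each called log2 fold change of the 6 genes kept its direction. Sign changes were seen for uncalled values near 0 alone, the difference of the iBET effect between stimuli of Irg1 (-0.33 without mouse A), Arg1 and Arg2 and the iBET effect on Ass1 with Ova (0.063 with surrogate variables). Arg2 was not past the threshold for iBET with library size alone, nor without mouse B or C with Ova and mouse A, B, C or D with IC, Nos2 was not for iBET with IC without mouse A or E, and Ass1 was not for IC under DMSO with library size alone or without mouse C, D or E. Slc7a2 was past it for IC under DMSO without mouse A and with surrogate variables, which also added it under iBET. With the mouse as a replicate block, the genes called for IC under DMSO, for IC under iBET and for the difference of the iBET effect went from 2531, 1474 and 5 to 4755, 3601 and 102, and those of the pathway lists from 18, 6 and 0 to 30, 22 and 1. The block lost no call on the 6 genes and added the 4 given in the report. Surrogate variables gave 2687 genes for IC under iBET, 15 of the pathway lists, and 50 for the difference, and DESeq2 gave 24 for the difference. Library size alone gave 2343 genes for IC under iBET, and its share of calls that were higher was 18.3% against 47.3% for IC under DMSO and 13.4% against 43.9% under iBET. With each mouse left out, IC under DMSO gave 1180 to 2477 genes and 6 to 14 of the pathway lists, IC under iBET 643 to 1177 and 2 to 6, and the difference 0 to 2, with the lowest gene counts for IC without mouse C. Mice A and B only lost Arg2 for iBET with both stimuli and Nos2 for iBET with IC, left Irg1 alone of the 6 past the threshold for IC and gave 500, 296 and 0 genes for these comparisons, with 2 and 0 of the pathway lists for IC, and 26 of the pathway lists in place of 43 for iBET with Ova. Mice C, D and E only gave 13 for the difference, lost Arg2 for iBET with both stimuli and added Slc7a2 for IC in both and Ass1 for IC under iBET. Fewer samples were fitted in each of these. The other counts over all genes and over the pathway lists stayed within 1.5 times. At 0 to 70 counts per library, depth limits the values of Nos2.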
